A study of Homo sapiens with 6 samples.

Results

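The 9 genes described here are induced by androgens in prostate cells and were listed in a comparison of abiraterone-selected and parental prostate cancer cells: KLK3, KLK2, EAF2, TRPM8, ALDH1A3, MPHOSPH9, CHRNA2, ADAM7 and HPGD. They were taken by symbol, after being selected on the fold change and adjusted p of this same comparison, and all 9 are among the 6018 genes of the authors' deposited table. RNA was sequenced from C4-2B-Abi cells (3 libraries) and from parental C4-2B cells (3 libraries). C4-2B is an established human prostate cancer line descended from LNCaP through xenografts in castrated mice. The C4-2B-Abi subline was selected in 1 to 20 µM abiraterone over at least 6 months, kept in 5 µM and is labelled passage 15 to 18, while the parental cells were passaged alongside in 1% DMSO and are labelled passage 0. Both lines grew in 10% serum. The extraction protocol also names 10 µM abiraterone, in wording that does not say whether both lines received it.

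Androgens act on these genes through androgen response elements, paired hexamers of DNA in promoters and enhancers. KLK3 encodes prostate-specific antigen (PSA), the serum marker of prostate disease. Abiraterone inhibits CYP17A1, an enzyme needed for androgen synthesis, and so lowers androgen supply.

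The table compares a condition C with a condition V by DESeq2 and has no value per library. Its header calls C control and V vehicle. The titles of the parental libraries carry a V, and the header ties neither letter to a cell line, so each direction names C or V and neither is read as a cell line. Each log2 fold change is C over V and is followed by ± the standard error. Genes are referred to as called where the authors' adjusted p lies under 0.05. Every gene in the table has p under 0.05 and a log2 fold change of 1.20 or more in size, so a gene that is not listed may have missed either limit. A level in C or in V is not listed; it was worked out from the mean over all samples and the fold change, with equally many libraries assumed on each side, and has no error. Depth per library is unknown.

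KLK3 and KLK2 lie side by side on chromosome 19 and had the largest changes of the 9 genes. The bases before their start sites are shown because both genes moved together and because the KLK3 promoter is known to hold an androgen response element. The sequences come from RefSeq (GRCh38.p14), plus strand, chr19:50854665-50854914 for KLK3 and chr19:50873189-50873438 for KLK2, each 250 bases ending just before the start site. Capitals mark the 15 bases closest to the element's consensus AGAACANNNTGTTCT, which reads the same on both strands.
KLK3: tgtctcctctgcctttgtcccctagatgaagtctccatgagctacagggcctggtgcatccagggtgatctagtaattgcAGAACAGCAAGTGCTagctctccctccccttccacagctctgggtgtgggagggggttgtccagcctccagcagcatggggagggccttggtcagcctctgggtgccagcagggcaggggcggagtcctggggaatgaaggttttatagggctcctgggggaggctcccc
KLK2: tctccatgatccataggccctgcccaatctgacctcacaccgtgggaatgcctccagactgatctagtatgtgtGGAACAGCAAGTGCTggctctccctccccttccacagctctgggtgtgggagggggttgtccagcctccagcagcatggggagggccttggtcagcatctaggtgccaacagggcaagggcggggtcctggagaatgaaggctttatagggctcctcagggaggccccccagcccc

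The 2 stretches were identical at 205 aligned positions, with 36 mismatches and 18 gap positions (79.2% identity). The element starts 170 bases before the KLK3 start and 176 bases before the KLK2 start. Counted from 1 at its 5′ end, the KLK3 element differs from the consensus by T10A and T13G, and the KLK2 element by these and A1G. Between KLK3 and KLK2 the element therefore differs by A1G alone. The 14 bases they share were found in 2 of 35116 promoter windows of 300 bases in the RefSeq table, those of KLK3 and KLK2, on either strand. The 14 bases were taken from the KLK3 window itself, and the 2 stretches are alike beyond the element. This count therefore says nothing about the element in particular.

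Promoter windows were found for 7 of the 9 genes, 13 windows in all. A match with at most 2 mismatches over the 12 defined consensus positions was found in the KLK3 window alone, against 1.41% of all windows. With at most 3 mismatches, windows of 4 genes matched (KLK3, KLK2, TRPM8 and HPGD), 4 of 13 windows against 10.8% of all. TRPM8 and HPGD have more than 1 window each, and the KLK3 and KLK2 promoters are alike. The 13 windows are thus not independent, and the difference in share was not tested. The half-site AGAACA, searched on both strands, was in 1 window each of KLK3 and TRPM8 and in 14.8% of all windows. EAF2, ALDH1A3 and MPHOSPH9 had neither the half-site nor a match with at most 3 mismatches in their windows. A match is a description of letters, not evidence of binding.

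KLK3, the PSA gene, came to a derived level of 15170 normalised counts in C and 3363 in V by the authors' deposited table. Its log2 fold change of 2.17 ± 0.07 in the authors' deposited table is a 4.51-fold higher level in C (95% interval 4.09 to 4.97). In bulk RNA, fewer cells making a transcript and less of it per cell cannot be told apart. KLK3 had the fourth highest mean of the 2954 listed protein-coding genes, 9267 normalised counts in the authors' deposited table. The means next to it in the authors' deposited table were those of the interferon-induced IFIT2 (9708) and the chaperone HSPA5 (9672) above, and of the stress cytokine GDF15 (8328) and the antiviral protein ZC3HAV1 (8183) below. Those 4 genes were all higher in V, with log2 fold changes of -12.01, -1.49, -4.07 and -3.83 in the authors' deposited table.

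KLK2 encodes a trypsin-like protease that can cleave the PSA precursor. Its level, worked out from the authors' deposited table, came to 2798 normalised counts in C and 466 in V. The log2 fold change of 2.59 ± 0.08 in the authors' deposited table is a 6.00-fold higher level in C (95% interval 5.35 to 6.73). It exceeded that of KLK3 by 0.41 on the log2 scale, a difference between genes measured in the same libraries that was not tested. The ratio of KLK3 to KLK2 derived levels was 5.42 in C and 7.21 in V, from the authors' deposited table.

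The 2 genes are paralogs, so reads could be assigned to the wrong gene. Of the 5119 distinct 50-base stretches in KLK3 transcripts of GENCODE release 29, 11 (0.215%) also occurred in another gene, in each case KLK2. For KLK2, 31 of 6910 stretches (0.449%) occurred in another gene. At the read length of 50 bases, exact sharing thus covered under 1% of either gene.

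**Figure D1:**
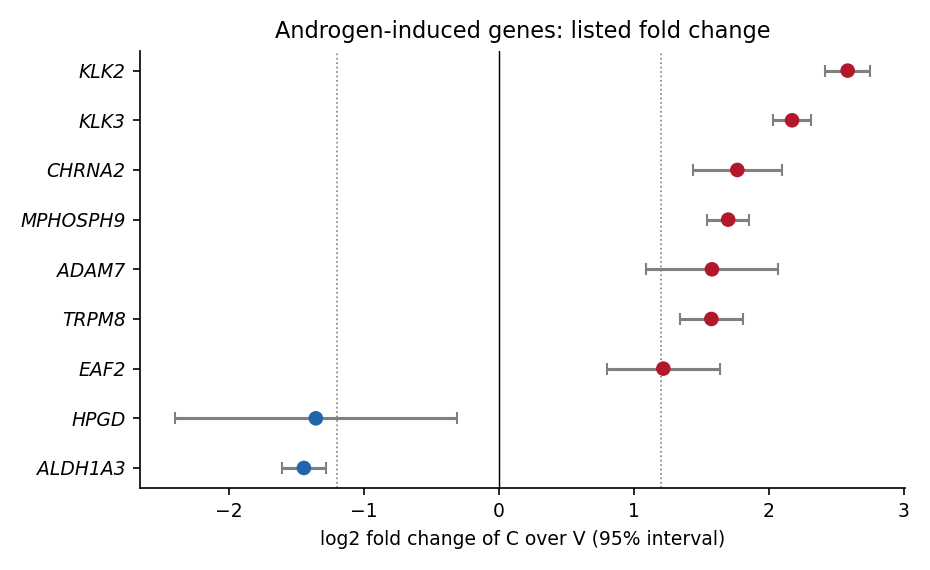
Log2 fold change of C over V for the 9 androgen-induced genes, as listed by the authors, with 95% intervals (bars). Dotted lines mark the table's lower limit of 1.20 in either direction. The 7 genes higher in C (red) run from EAF2 at 1.22 to KLK2 at 2.59, and the 2 genes higher in V (blue) are HPGD and ALDH1A3.

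Among the 9 genes, 7 had more RNA in C and 2 had more in V. All 9 were called, which was how they had come to be chosen, so these counts are a description. Among all listed genes 89.4% were called, and among listed protein-coding genes 92.6% were called, 31.6% toward C and 61% toward V. The median log2 fold change was 1.58 over the 9 genes, -1.55 over listed protein-coding genes and 1.26 over all listed genes.

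Of the receptor and channel genes, CHRNA2 encodes a subunit of the nicotinic acetylcholine receptor. Its level, worked out from the authors' deposited table, came to 449 normalised counts in C and 132 in V. The listed log2 fold change was 1.77 ± 0.17 in the authors' deposited table, or 3.41-fold (95% interval 2.71 to 4.28). TRPM8 encodes a cation channel opened by cold and menthol and is a known prostate gene. The derived level came to 389 normalised counts in C and 131 in V by the authors' deposited table. The log2 fold change of TRPM8 was 1.58 ± 0.12 in the authors' deposited table, or 2.98-fold (95% interval 2.54 to 3.50).

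Without CHRNA2, 2 of 15 nicotinic receptor subunit genes (13.3%) were listed, against 14.8% of all protein-coding genes in GENCODE. They were the called CHRNA5, higher in C, and CHRNA4. CHRNA5 stood at 1.34 ± 0.23 and the uncalled CHRNA4 at -1.71 ± 0.77 in the authors' deposited table. CHRNA2 transcripts share 47 of 5493 50-base stretches (0.856%) with CHRNA4. Of 21 TRP channel genes, TRPM8 alone was called.

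MPHOSPH9 encodes a centriole protein that helps keep the cap on the mother centriole and so restrains cilium formation. Its level, worked out from the authors' deposited table, came to 1094 normalised counts in C and 337 in V. The log2 fold change was 1.70 ± 0.08 in the authors' deposited table, or 3.25-fold (95% interval 2.92 to 3.62). Without MPHOSPH9, 1 of 8 genes of the centriole cap and cilium start was listed, a share of 12.5% against 14.8% of all protein-coding genes. It was the kinesin KIF24, higher in C at 2.05 ± 0.13 in the authors' deposited table. An unconfirmed transcript gene on the same strand, AC073857.1, overlaps MPHOSPH9 and shares 255 of its 10978 50-base stretches. It was also higher in C, at 2.78 ± 0.40 in the authors' deposited table, so reads of the 2 genes cannot be wholly told apart there.

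EAF2 encodes a partner of the elongation factor ELL and is known as an androgen-induced growth suppressor of the prostate. The derived level came to 77.4 normalised counts in C and 33.2 in V by the authors' deposited table. The log2 fold change of 1.22 ± 0.21 in the authors' deposited table is 2.33-fold (95% interval 1.74 to 3.11). EAF2 was the member nearest to the table's fold limit of 1.20. Without EAF2, 1 of 11 genes for ELL, its partners and the elongation kinase was listed, a share of 9.09% against 14.8% of all protein-coding genes. It was the scaffold AFF1, higher in V at -1.58 ± 0.09 in the authors' deposited table.

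ADAM7 encodes a membrane protein of the ADAM family that is best known from the epididymis. It had the lowest mean of the 9 genes, 39.6 normalised counts in the authors' deposited table. The derived level came to 59.4 normalised counts in C and 19.9 in V by the authors' deposited table. The log2 fold change was 1.58 ± 0.25 in the authors' deposited table, or 2.99-fold (95% interval 2.13 to 4.19). Without ADAM7, 5 of 20 ADAM genes (25%) were called, 2 toward C and 3 toward V, against 13.7% of all protein-coding genes called. ADAM28 (2.17 ± 0.51), the neighbour of ADAM7, and ADAM32 (1.58 ± 0.54) stood higher in C by the authors' deposited table. ADAM10 (-1.51 ± 0.10), a sheddase of many membrane proteins, ADAM23 (-2.65 ± 0.46) and ADAM19 (-4.01 ± 1.49) stood higher in V by the authors' deposited table. ADAM19 had under 1 normalised count in C by derivation, which leaves the size of its change poorly determined.

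The 2 enzyme genes were listed as higher in V. Centred on the median of listed protein-coding genes with a mean of at least 100 (-1.37), ALDH1A3 came to -0.07 and HPGD to 0.020. KLK3 came to 3.55 on this scale, because centring moved every gene toward C by the same amount. Every listed log2 fold change is 1.20 or more in size, so a median toward V had to be at least that large. Genes listed just toward V were therefore bound to come near 0, and these centred values do not bear on their direction. ALDH1A3 makes retinoic acid from retinal. Its level, worked out from the authors' deposited table, came to 287 normalised counts in C and 779 in V. The log2 fold change of -1.44 ± 0.08 in the authors' deposited table is a 2.72-fold lower level in C (95% interval 2.43 to 3.04). The antisense gene AC015712.2 overlaps it and was also higher in V, at -3.47 ± 1.26 in the authors' deposited table. Because the protocol names both an unstranded and a stranded library kit, reads of the 2 genes cannot be told apart where they overlap.

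Without ALDH1A3, 20 genes of retinoid metabolism and signalling were looked up, and 5 were called, 1 toward C and 4 toward V. Of all protein-coding genes in GENCODE, 13.7% were called. Among called protein-coding genes in general, 34.1% lay toward C, so most of those lay toward V too. RDH10, which makes the retinal that ALDH1A3 uses, came to a derived level of 33.1 normalised counts in C and 2010 in V by the authors' deposited table. Its log2 fold change was -5.93 ± 0.15 in the authors' deposited table. DHRS3, which returns retinal to retinol, stood at -1.22 ± 0.14, and the receptor RARB, the single gene higher in C, at 1.32 ± 0.27 in the authors' deposited table. DHRS9 (-4.06 ± 1.45) and RXRG (-4.45 ± 1.68) stood higher in V by the authors' deposited table, with derived C levels under 1 normalised count.

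HPGD inactivates prostaglandins by oxidation. Its level, worked out from the authors' deposited table, came to 134 normalised counts in C and 342 in V. The log2 fold change of -1.35 ± 0.53 in the authors' deposited table is a 2.55-fold lower level in C, with a 95% interval of 1.24 to 5.27. It had the weakest call of the 9 genes, with a DESeq2 adjusted p of 0.0272 in the authors' deposited table. The call was lost at an adjusted p under 0.01. Without HPGD, 4 of 23 prostaglandin genes (17.4%) were called, 2 in each direction, against 13.7% of all protein-coding genes. PTGS2 (-4.68 ± 0.90), the inducible cyclooxygenase, and PTGES (-1.72 ± 0.63), a prostaglandin E synthase, were higher in V with HPGD by the authors' deposited table. PLA2G4A (2.30 ± 0.51), which releases arachidonic acid, and the thromboxane receptor TBXA2R (1.97 ± 0.84) stood higher in C by the authors' deposited table.

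HPGD also stood apart by its standard error, 0.53 in the authors' deposited table, against 0.12 for TRPM8, whose mean is close to it. DESeq2's standard error widens with low counts and with the spread between libraries. Of 674 listed protein-coding genes with a mean within 2-fold of that of HPGD, 28 (4.15%) had a larger standard error. Among the 462 of them with an absolute log2 fold change under 2, 6 did, and their median was 0.14. Standard errors of 7 of the 9 genes were below the median of genes of like mean; HPGD and CHRNA2 were above it. Values per library, which would show which libraries differ, are not in the table used here.

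**Figure D2:**
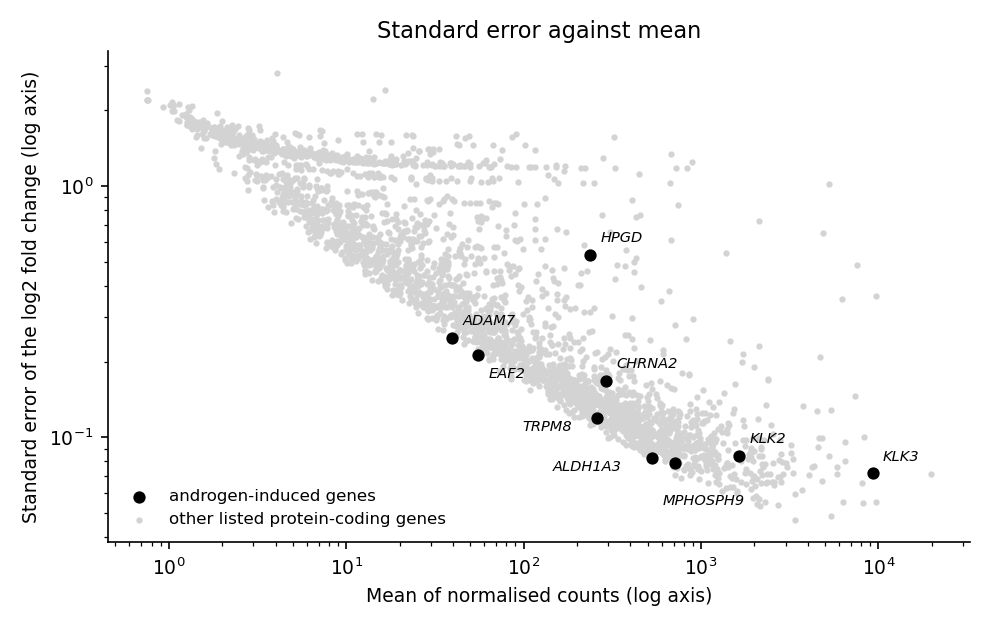
Standard error of the log2 fold change against the mean of normalised counts, both on log axes and as listed by the authors, for the 9 androgen-induced genes (black) and the other listed protein-coding genes (grey). HPGD lies at 0.53, above most genes of like mean, while TRPM8 at a similar mean lies at 0.12.

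Levels of different genes were compared per kilobase of exon, using the union of exons in GENCODE release 29. This union can be longer than a transcript. It is 4639 bases for KLK3 and 6394 for KLK2, against 1463 for transcript KLK3-201 and 3019 for KLK2-201. Levels per kilobase and their order therefore depend on the annotation. From the authors' deposited table, KLK3 had 3270 normalised counts per kilobase in C and 725 in V. In C the order of derived levels per kilobase, from the authors' deposited table, went on with KLK2 (438), MPHOSPH9 (106), CHRNA2 (88.8), ALDH1A3 (49.7), TRPM8 (49.2), EAF2 (43.7), HPGD (24.2) and ADAM7 (13.2). In V the order of levels per kilobase after KLK3, from the authors' deposited table, was ALDH1A3 (135), KLK2 (72.9), HPGD (61.8), MPHOSPH9 (32.7), CHRNA2 (26.1), EAF2 (18.8), TRPM8 (16.5) and ADAM7 (4.43). KLK3 was first and ADAM7 last on both sides, and ALDH1A3 and HPGD stood higher in the order in V. Derived levels have no error, so close neighbours such as ALDH1A3 and TRPM8 in C cannot be ordered. KLK3 made up 74.2% of the summed derived level of the 9 genes in C and 60.0% in V, the sums being 20458 and 5602 normalised counts from the authors' deposited table.

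**Figure D3:**
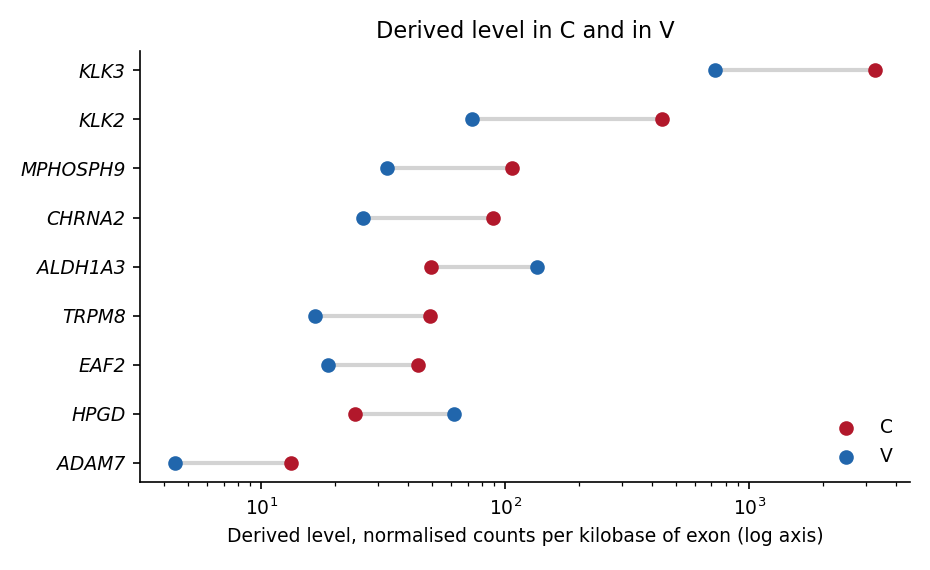
Derived level of each of the 9 genes in C (red) and in V (blue), in normalised counts per kilobase of exon on a log axis, with no error available. KLK3 is the highest and ADAM7 the lowest on both sides, and ALDH1A3 and HPGD are the 2 genes with the blue point to the right.

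The kallikrein family lies in 1 cluster of 15 genes over 265 kb on chromosome 19, and its listed genes were neighbours. KLK1, KLK15, KLK3 and KLK2 were listed, called and higher in C. They are the first 4 genes of the cluster in GENCODE release 29 (GRCh38), within 61.4 kb. The 11 genes from KLK4 to KLK14 on the far side of KLK2 were not listed. KLK1, which encodes tissue kallikrein, came to a derived level of 55.8 normalised counts in C and 8.46 in V by the authors' deposited table. Its log2 fold change was 2.72 ± 0.68 in the authors' deposited table. KLK15 had a derived level of 52.7 normalised counts in C and 18.3 in V, and a log2 fold change of 1.52 ± 0.28, in the authors' deposited table. Without KLK3 and KLK2, which were chosen for their change, 2 of 13 family members were called. That share stands beside 13.7% of all protein-coding genes in GENCODE, with unlisted genes counted as not called.

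**Figure D4:**
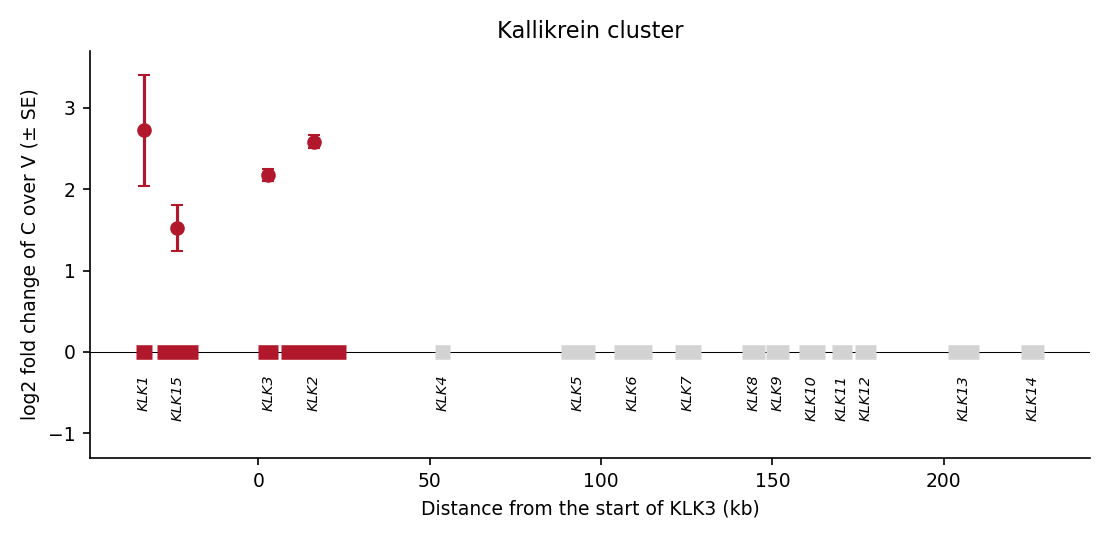
Log2 fold change of C over V with its standard error (points and bars) for the kallikrein genes, against distance in kilobases from the start of KLK3. Thick segments at 0 show the span of each gene, red where listed and grey where not; the 4 listed genes stand together at the left end, and all are above 0.

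Beyond the kallikreins, KLK3 and KLK2 had 3 other listed neighbours starting within 250 kb. C19orf48 was higher in C at 1.38 ± 0.08, and SNORD88A, a small nucleolar RNA gene within its span, at 1.67 ± 0.43 in the authors' deposited table. C19orf81 was higher in V at -1.76 ± 0.73 in the authors' deposited table. Over all 9 genes, 63 protein-coding genes started within 250 kb, and 11 of them (17.5%) were listed, 8 higher in C and 3 higher in V. Of all protein-coding genes in GENCODE, 14.8% were listed, and 34.1% of called protein-coding genes lay toward C. The 8 include KLK1 and KLK15 of the kallikrein cluster, and the split was not tested.

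Most listed genes of a wider androgen-response list were higher in V. Of a list of 100 androgen-response genes drawn up from general knowledge, 22 were listed and called, 7 of them higher in C and the other 15 in V. Of all protein-coding genes in GENCODE, 13.7% were called. Their median log2 fold change was -1.43, against -1.55 over listed protein-coding genes. Without the 4 genes that are also among the 9 (KLK3, KLK2, ALDH1A3 and HPGD), 18 of 96 were called, 5 of them higher in C and the other 13 in V. The share higher in C was then 27.8%, against 34.1% of all called protein-coding genes.

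The genes with the smallest p on this list, beside KLK2 and KLK3, were all higher in V. They were B2M (-3.93 ± 0.06), the class I light chain, SAT1 (-3.23 ± 0.09), which catabolises polyamines, B4GALT1 (-1.99 ± 0.07), a galactosyltransferase, and HMGCS1 (-2.67 ± 0.10), an enzyme of cholesterol synthesis, in the authors' deposited table. Genes of the list, in either direction, may also answer to other signals, so the list is not specific to androgens. What lay behind their directions was not tested. The 5 genes higher in C, named after their values were seen, were AKAP12 (4.98 ± 0.41), KRT19 (2.33 ± 0.18), BMPR1B (2.25 ± 0.12), MAK (1.67 ± 0.30) and PA2G4 (1.42 ± 0.08) in the authors' deposited table.

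**Figure D5:**
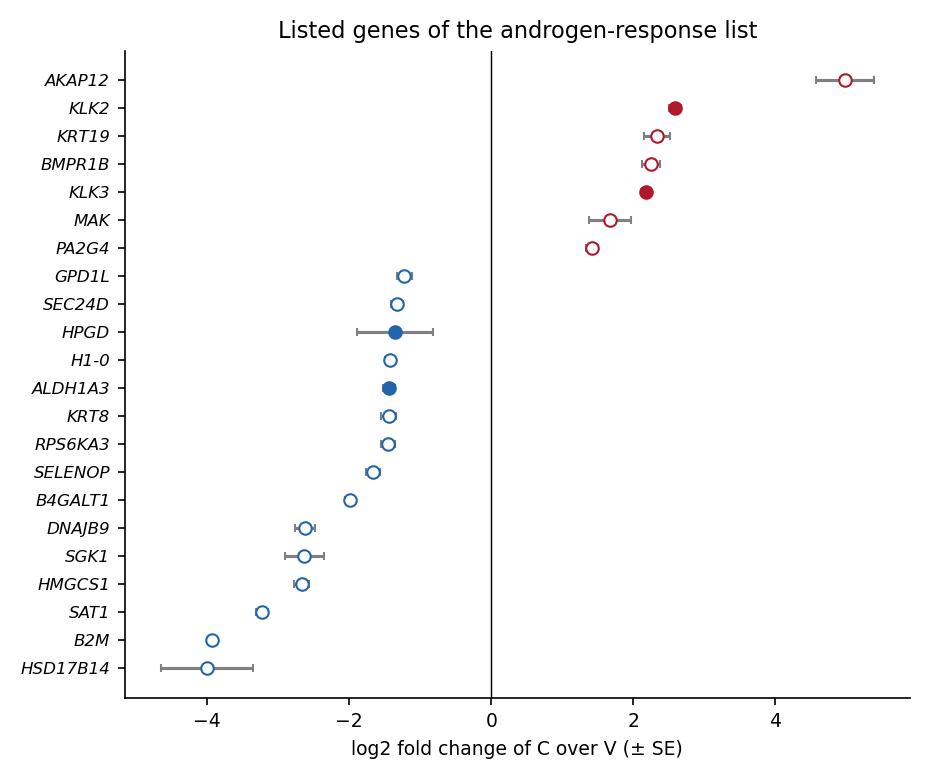
Log2 fold change of C over V with its standard error for the 22 listed genes of the 100-gene androgen-response list, as listed by the authors. Filled points are genes among the 9 described here and open points are the others; 7 genes are higher in C (red) and 15 higher in V (blue).

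Of 11 luminal prostate markers, KLK3, KLK2 and KRT8 were listed, and the rest could not be checked. KRT8 went the other way from KLK3 and KLK2, at -1.45 ± 0.10 with derived levels of 1364 normalised counts in C and 3715 in V by the authors' deposited table. Markers of other cell types moved as well. For comparison, 13.7% of all protein-coding genes in GENCODE were called, and 34.1% of the called ones lay toward C. Of 6 basal epithelial markers, 4 were called, all higher in V, with a summed derived level of 1.17 normalised counts in C and 552 in V from the authors' deposited table. The 4 derived levels ran from 0.162 to 0.679 in C and from 28.6 to 446 in V in the authors' deposited table. Of 5 leukocyte markers, 2 were called, both higher in V, with a summed derived level over the 3 listed of 1.24 in C and 44.2 in V from the authors' deposited table. Of 5 fibroblast markers, 3 were called, 2 of them higher in V, and the summed derived level was 91.0 in C and 329 in V from the authors' deposited table. None of 6 neuroendocrine markers was listed. The part of these markers in the results for the 9 genes was not tested.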

How the data were processed

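RNA sequencing libraries were grouped by the cell line in the labels. The deposited table is the authors' DESeq2 comparison of C with V, per the file headers. BaseMean, a signal averaged by the authors over all samples from normalised counts, sets the level of each gene, per the file headers. Log2 fold changes were maximum likelihood estimates of the authors, per the file headers. Score columns hold their standard errors and Wald statistics, both from the authors, per the file headers. The p-value and the Benjamini-Hochberg adjusted p-value are from the authors' Wald test, per the file headers. The submitters' processing notes name FastQC and Cufflinks 2.2.1 and give no role for either. Aligner, counter and build: not given in the sources used here. Nothing in the labels says that each library had a culture of its own, so the spread behind the p-values may be technical.

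With no value per library, no test across libraries was run, and the listed p-values were read as they stand. An adjusted p of 0 beside a p above 0 was read as not given. Levels in C and V were set so that they average to the mean over all samples and differ by the fold change. Intervals are the estimate ± 1.96 standard errors. Positions, gene types and exon lengths were taken from GENCODE release 29 on GRCh38, where 5935 of the 6018 identifiers were found, and promoters from RefSeq (GRCh38.p14); neither need be the authors' annotation. Gene symbols were matched to the table's own. Motif, length and level functions were tested on simulated data. Tables were made with Python 3.11.15 and pandas 2.3.3.

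The 9 genes and all gene lists were chosen with earlier results of these data known. Named genes were all 9, of each list the called genes or, above 6, the 6 with the smallest p, listed genes starting within 250 kb, and the 2 protein-coding genes on each side of KLK3 by mean. A further gene list is not reported here.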

Additional observations from a re-analysis of the deposited data

How the results depend on the processing

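Other call rules changed some counts. With a log2 fold change of 2 or more in size required, the 9 genes had 2 calls toward C and 0 toward V, and the androgen-response list had 6 called higher in V, against 15. With an adjusted p under 0.01 or with the 95% interval wholly beyond 1 or -1, 1 of the 9 genes was called higher in V, and HPGD was the gene lost. The interval rule also dropped EAF2, leaving 6 of the 9 genes called higher in C, and a mean of at least 100 left 5, without EAF2 and ADAM7. With a mean of at least 100, 2 kallikreins were called, against 4. Leaving out the 9 genes, an alternative chosen after seeing the data, also left 2 kallikreins. Centring subtracted the median of listed protein-coding genes with a mean of at least 100 (-1.37) from every log2 fold change. It put HPGD at 0.020, ALDH1A3 at -0.07 and KLK3 at 3.55. The listed genes are a selection, so their median need not be that of all genes. As every listed change is 1.20 or more in size, values near 0 were bound to follow for genes listed just toward V. Values larger than the listed ones were likewise bound to follow for genes higher in C. With 3 libraries against 2 in either direction, derived levels fell by at most 12.5% and rose by at most 16.7%.

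Leaving out single replicates could not be run, since the table has no column per library. No paired analysis was possible because the table has no column per library. Depth limits ADAM7 and EAF2 most among the genes higher in C, as their means were the lowest.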

Other observations

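Listed neighbours starting within 250 kb of the other genes gave mixed directions. Near EAF2, the peptide transporter SLC15A2 was higher in C at 2.45 ± 0.25, while the blood-cell adaptor HCLS1 (-1.86 ± 0.69) and the RNA pseudogene RN7SL172P (-5.83 ± 1.36) stood higher in V by the authors' deposited table. RN7SL172P came to 0.16 normalised counts in C, which leaves the size of its change poorly determined. Near TRPM8, the centromere chaperone HJURP was higher in C at 1.30 ± 0.11 in the authors' deposited table. Near CHRNA2, the secreted chaperone CLU was higher in V at -1.45 ± 0.09 and the scavenger receptor SCARA3 higher in C at 1.91 ± 0.21 in the authors' deposited table. Near MPHOSPH9, RILPL2 (1.40 ± 0.20) and AC026362.2 (1.78 ± 0.61) were higher in C, as was the pseudogene AC090695.1 (1.99 ± 0.50) near ALDH1A3, in the authors' deposited table. HPGD had 6 genes within that distance and none was listed.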
